A study of Mus musculus with 20 samples.

Results

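The genes Sprr1a, Ly6d, Unc5b, Shc2 and Sdcbp2 were described across mouse liver libraries of 3 groups. They are 5 of the 32400 Ensembl genes in the deposited table, found by their symbols in GENCODE mouse release M21. They were picked because their RNA was much higher on the study's diet than on chow and was lower again with a guide RNA against Flcn. The differences between groups that chose them are therefore given as a description, with no test.

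Bulk messenger RNA of liver from the mouse substrain C57BL/6NTac was sequenced in 20 libraries. The HFHF Flcn gRNA group (n = 8) received the Flcn guide RNA in adeno-associated virus serotype 8 (AAV8) and ate a diet high in fat and fructose (HFHF). The HFHF control group (n = 7) received the vehicle, phosphate-buffered saline, and the same diet. The chow control group (n = 5) ate standard chow and had no treatment. The HFHF control mice thus received no virus, so the guide and the virus that carried it cannot be told apart, and chow differed from HFHF control in the vehicle as well as the diet. The nuclease that the guide works with, the age and sex of the mice and the length of the diet were not given in the sources used. Whether every library stands for its own animal is not stated either, so p-values measure only the spread between these samples.

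Total estimated counts were 13974379 to 19586576 per gRNA library, 15244760 to 18194089 per HFHF control library and 14131976 to 16285324 per chow library. Levels are given in CPM, a gene's counts per 1000000 counts of the library, after scaling by the trimmed mean of M values (TMM). At this depth 1 count was worth about 0.0702 CPM in gRNA replicate 8, for example. Flcn itself, which encodes folliculin, was measured at 17.8 ± 2.40 CPM in gRNA libraries, 20.7 ± 2.98 CPM in HFHF control libraries and 22.2 ± 6.03 CPM in chow libraries (SD). It differed by -0.22 on the log2 scale between gRNA and HFHF control (SE 0.12, adjusted p = 0.14, edgeR's quasi-likelihood test), so the transcript level does not by itself separate the libraries by their label. Between gRNA and chow Flcn differed by -0.32 (SE 0.13, adjusted p = 0.05 after rounding, edgeR's quasi-likelihood test). In its title, gRNA replicate 8 carries another number in the second field than all other libraries. With 1 library of 1 group, a batch behind that number and the group cannot be told apart, so the values of the 5 genes are also given without that library.

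Folliculin, in a complex with a folliculin-interacting protein, regulates Rag GTPases on the lysosome surface and, by way of these, the transcription factors TFEB and TFE3. Squamous epithelia such as the epidermis build a cornified envelope, a sheath of cross-linked proteins under the cell membrane, while the liver's epithelium of hepatocytes and bile duct cells is simple and makes keratins such as KRT8 and KRT18. Sprr1a encodes a small proline-rich protein that transglutaminases cross-link into the cornified envelope, and it is also known as a gene induced in injured mouse neurons. Ly6d encodes a surface protein of the LY6 family held by a glycosylphosphatidylinositol anchor, known from keratinocytes and from mouse lymphoid progenitors that go on to become B cells. Unc5b encodes a receptor for netrins that guides growing axons and, in mouse endothelium, growing vessels. Shc2 encodes an adaptor of the SHC family, which links activated receptor tyrosine kinases to GRB2 and RAS and is best known from the nervous system. Sdcbp2 encodes syntenin-2, a protein with a pair of PDZ domains that binds phosphoinositides at membranes, close kin of the syndecan-binding syntenin-1 encoded by Sdcbp.

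On GRCm38 the genes lie on 4 chromosomes, and all are annotated as protein-coding. Sprr1a (ENSMUSG00000050359) spans chr3:92483952-92485895 on the minus strand, within the cluster of Sprr genes. Ly6d (ENSMUSG00000034634) spans chr15:74762056-74763620 on the minus strand. Unc5b (ENSMUSG00000020099) spans chr10:60762593-60831581 and Shc2 (ENSMUSG00000020312) spans chr10:79618051-79637918, both on the minus strand. Sdcbp2 (ENSMUSG00000027456) spans chr2:151572622-151590005 on the plus strand.

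RefSeq promoter sequence on GRCm38.p6 matched 4 of the 5 genes by symbol, Ly6d being the other. Each window of 300 bases, from 250 before the annotated start to 50 after it, was searched on both strands for the letters of 6 motifs. AP-1, the site of FOS and JUN dimers (TGANTCA), matched in Sprr1a and Sdcbp2. It occurs in 7.81% of all 32851 promoters of the same length. The 250 bases before the start of these 2 genes are printed 5′ to 3′ because both hold that match, with the AP-1 letters in capitals. The Sprr1a window is chr3:92485882-92486131 on the minus strand, and the Sdcbp2 window is chr2:151572373-151572622 on the plus strand. The RefSeq start of Sprr1a lies a few bases inside the GENCODE span given above.
Sprr1a: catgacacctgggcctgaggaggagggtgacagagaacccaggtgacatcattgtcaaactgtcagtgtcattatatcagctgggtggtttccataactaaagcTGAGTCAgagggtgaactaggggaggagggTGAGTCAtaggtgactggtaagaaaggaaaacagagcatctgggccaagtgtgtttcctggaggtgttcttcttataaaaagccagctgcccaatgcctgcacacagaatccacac
Sdcbp2: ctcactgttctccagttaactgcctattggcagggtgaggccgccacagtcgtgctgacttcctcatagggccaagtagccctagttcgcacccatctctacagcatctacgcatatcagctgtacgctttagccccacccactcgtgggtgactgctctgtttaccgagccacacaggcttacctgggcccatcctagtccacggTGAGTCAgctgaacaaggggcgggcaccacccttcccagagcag
In Sprr1a the AP-1 letters occurred at both positions -146 to -140 and -116 to -110, counted from the start with -1 as the base just before it. In Sdcbp2 they occurred once, at -44 to -38. The Sprr1a window also held the core of the NRF2 site (TGACNNNGC, in 12.4% of promoters) at -148 to -140, which overlaps the first AP-1 match, and a TATA box (TATAAA, in 13.6%) at -43 to -38. The TEAD letters (GGAATG, in 14.7%) occurred in Shc2 at -115 to -110. Neither the cyclic AMP response element (TGACGTCA, in 1.79%) nor the E-box of the MiT/TFE factors (CACGTG, in 7.15%) occurred in any of the 4 windows. The promoters also differed in composition over the 250 bases before the start, from 49.6% G and C and 0 CpG pairs in Sprr1a to 66.8% and 27 CpG pairs in Unc5b, with 58% and 9 in Sdcbp2 and 64% and 19 in Shc2. These are matches of letters in a window and not measured binding.

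For all 5 genes the HFHF Flcn gRNA mean lay below the HFHF control mean and above the chow mean. Every HFHF control library was above every chow library for 5 of 5 genes, which held for 18.8% of the 13667 genes tested. Every gRNA library was below every HFHF control library for 4 of 5 genes, Ly6d being the exception, against 6.01% of the genes tested. Every gRNA library stayed above every chow library for Sdcbp2, Ly6d and Unc5b, that is 3 of 5 genes, against 9.01% of the genes tested. The genes were chosen on these groups, so nothing is read from these counts. In bulk liver RNA, fewer cells of a type and less RNA per cell cannot be told apart. All 5 genes passed the filter on low counts, which they could pass through HFHF control alone. Without gRNA replicate 8, the log2 difference between gRNA and HFHF control was -4.54 for Sprr1a, -4.14 for Shc2, -2.77 for Sdcbp2, -1.47 for Ly6d and -1.38 for Unc5b, close to the values with it given below.

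**Figure D1:**
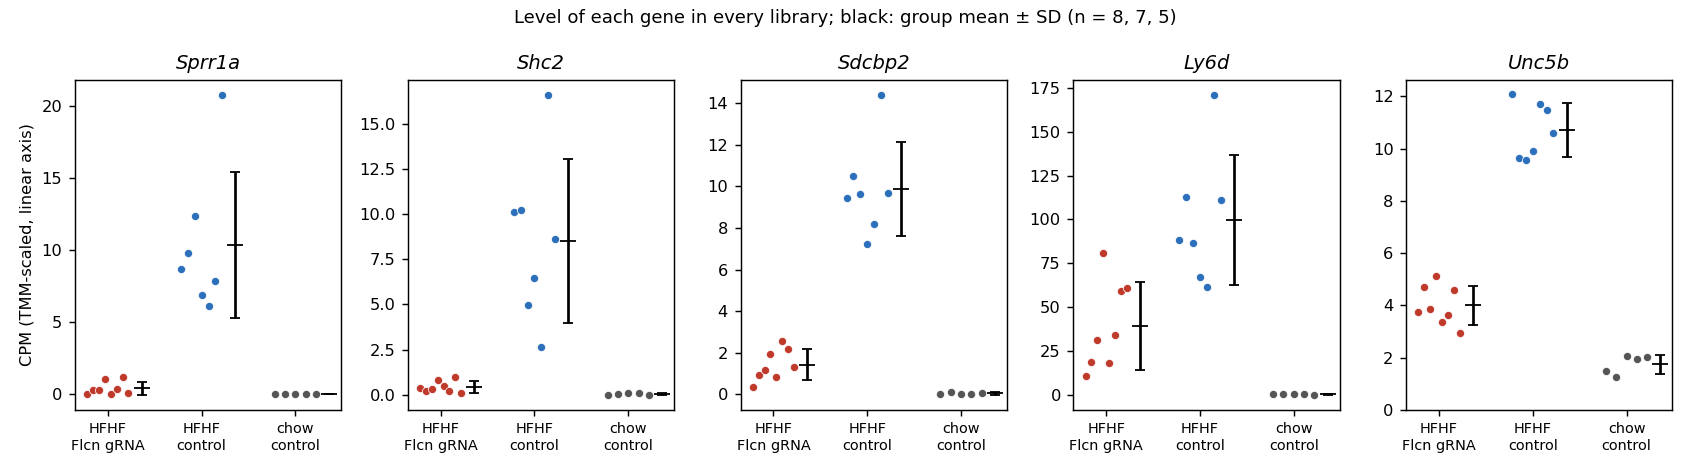
Level in CPM (linear axes, a scale for each gene) of Sprr1a, Shc2, Sdcbp2, Ly6d and Unc5b in every library of HFHF Flcn gRNA (n = 8), HFHF control (n = 7) and chow control (n = 5), with black bars for mean ± SD. The gRNA points lie under all HFHF control points except for Ly6d, where gRNA replicate 4 at 80.6 CPM lies among them, and the chow points lie at or near 0 for 4 genes and at 1.26 to 2.04 CPM for Unc5b.

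Sprr1a, the structural gene of the group, had 0 to 19 counts per library with the guide, 109 to 404 in HFHF control and none in chow. In gRNA replicates 1 to 8 its level was 0, 0.275, 0.235, 1.03, 0, 0.362, 1.17 and 0.0702 CPM. In HFHF control replicates 1 to 7 it was 8.69, 9.82, 12.4, 6.86, 6.09, 7.84 and 20.8 CPM. All 5 chow libraries were at 0. Replicates 4 and 7 were high among the gRNA libraries and replicate 7 among the HFHF controls, and 2 gRNA libraries were at 0, as all chow libraries were. The mean was 0.393 ± 0.458 CPM with the guide and 10.4 ± 5.06 CPM in HFHF control (SD), a difference of -4.67 on the log2 scale (SE 0.49), or 26.4-fold lower by the means. Chow held 0 of its reads, so only bounds can be given, taken against 3 counts over the whole chow group. HFHF control was at least 235-fold higher than chow, and gRNA at least 8.93-fold higher than chow by its mean.

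Other members of the Sprr family were all but silent. The table holds 15 Sprr genes, of which Sprr1a alone passed the filter on low counts and 9 were at 0 in every library. Sprr1b, the closest relative by name, had 0 counts over the gRNA libraries, 4 over the HFHF control libraries and 0 over the chow libraries. Sprr2a2 had the highest total of the 14 others, 34 counts over 20 libraries, made up of 7 in gRNA, 26 in HFHF control and 1 in chow. Sprr3 and Sprr4, the genes on either side of Sprr1a at 25232 and 14368 bases, had no count at all. Near-identical Sprr genes can share reads, and how such reads were assigned was not stated in the labels.

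Ly6d was the most abundant of the 5 genes in gRNA and HFHF control libraries, and its gRNA libraries ran the widest in CPM. In gRNA replicates 1 to 8 it stood at 10.9, 18.6, 31.3, 80.6, 18.4, 34.4, 59.5 and 61.2 CPM. In HFHF control replicates 1 to 7 it stood at 88.3, 113, 86.3, 67.1, 61.7, 171 and 111 CPM. In chow replicates 1 to 5 it stood at 0.294, 0.332, 0.303, 0.446 and 0.156 CPM, from 2 to 6 counts each. The gRNA libraries thus ran from far below the HFHF controls to within their range, where replicate 4 lay above HFHF control replicates 4 and 5. Replicates 8 and 7 came next, and replicate 8 was just under the lowest HFHF control. The mean was 39.4 ± 24.9 CPM with the guide, 99.7 ± 37.1 CPM in HFHF control and 0.306 ± 0.104 CPM in chow (SD). Between gRNA and HFHF control the difference was -1.34 on the log2 scale (SE 0.35), or 2.53-fold lower. HFHF control differed from chow by 8.30 (SE 0.72), or 326-fold, and gRNA from chow by 6.96 (SE 0.73), or 129-fold. The guide group was therefore still far above chow in every library.

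Unc5b, the netrin receptor, was the only one of the 5 with a clear level on chow and had the smallest spread relative to its mean in the gRNA and HFHF control groups. In gRNA replicates 1 to 8 its level was 3.75, 4.72, 3.87, 5.14, 3.36, 3.62, 4.57 and 2.95 CPM. In HFHF control replicates 1 to 7 its level was 12.1, 9.64, 9.58, 9.93, 11.7, 11.5 and 10.6 CPM. In chow replicates 1 to 5 its level was 1.47, 1.26, 2.04, 1.93 and 2.02 CPM. The 3 groups did not overlap, with gRNA between the other two. The coefficient of variation was 18.7% among gRNA libraries, 9.74% among HFHF controls and 20.5% in chow, against 63.4% and 37.2% for Ly6d in gRNA and HFHF control. The mean was 4.0 ± 0.746 CPM with the guide, 10.7 ± 1.04 CPM in HFHF control and 1.75 ± 0.357 CPM in chow (SD). The log2 difference was -1.42 between gRNA and HFHF control (SE 0.11), 2.62 between HFHF control and chow (SE 0.15, 6.14-fold) and 1.20 between gRNA and chow (SE 0.15, 2.29-fold).

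Shc2, the SHC adaptor, was close to absent with the guide, as it was on chow, and present in HFHF control. In gRNA replicates 1 to 8 there were 0.375, 0.22, 0.293, 0.836, 0.507, 0.207, 0.987 and 0.0702 CPM of it. In HFHF control replicates 1 to 7 there were 10.1, 10.2, 4.97, 6.45, 2.63, 16.6 and 8.61 CPM. In chow replicates 1 to 5 there were 0, 0.0664, 0.0757, 0.0743 and 0 CPM, a single count in each of 3 libraries. HFHF control replicate 6 was the highest and replicate 5 the lowest of that group, and even replicate 5 was above all gRNA libraries. Only gRNA replicate 8, with 1 count, was within the range of chow. The mean was 0.437 ± 0.322 CPM with the guide and 8.52 ± 4.53 CPM in HFHF control (SD), a log2 difference of -4.27 (SE 0.40), or 19.5-fold lower. Chow held 3 counts in all, so the ratio of means comes with a 95% interval for counting error alone. That ratio was 197 for HFHF control over chow (65.8 to 937) and 10.1 for gRNA over chow (3.19 to 49).

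Sdcbp2, the syntenin-2 gene, lay farther from chow with the guide than Sprr1a and Shc2 did on the linear scale. In gRNA replicates 1 to 8 it was measured at 0.375, 0.934, 1.17, 1.93, 0.824, 2.58, 2.16 and 1.33 CPM. In HFHF control replicates 1 to 7 it was measured at 9.42, 10.5, 9.63, 7.21, 8.21, 14.4 and 9.69 CPM. In chow replicates 1 to 5 it was measured at 0, 0.133, 0, 0 and 0.0778 CPM, from 3 counts in all. The groups did not overlap, and gRNA replicate 1 was the library nearest to chow, with 5 counts. The mean was 1.41 ± 0.748 CPM with the guide and 9.86 ± 2.26 CPM in HFHF control (SD), a log2 difference of -2.77 (SE 0.25), or 6.97-fold lower. The ratio of means was 234 for HFHF control over chow (95% counting interval 76.3 to 1086) and 33.6 for gRNA over chow (11.2 to 162). Those ratios rest on a few chow reads. Without chow replicate 2, which held 2 of the 3, they were 521 and 74.4.

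Divided by exon length, the order of the genes within a group could be compared. In gRNA libraries the mean level per kilobase of exon was 52.9 CPM for Ly6d, 1.01 for Sdcbp2, 0.639 for Unc5b, 0.487 for Sprr1a and 0.0805 for Shc2. In HFHF control it was 134 CPM per kilobase for Ly6d, 12.8 for Sprr1a, 7.05 for Sdcbp2, 1.71 for Unc5b and 1.57 for Shc2. In chow it was 0.411 CPM per kilobase for Ly6d, 0.279 for Unc5b, 0.0301 for Sdcbp2, 0.00797 for Shc2 and 0 for Sprr1a. Per kilobase Ly6d stood first in all 3 groups, while Sprr1a was second in HFHF control, the fourth with the guide and last on chow.

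How far each gene returned to chow was expressed as the share of the distance between the HFHF control mean and the chow mean that the gRNA group had closed, where 100% is the chow mean. On the linear CPM scale the gRNA group closed 96.2% of that distance for Sprr1a and 95.4% for Shc2. Sdcbp2 followed with 86%, then Unc5b with 74.9% and Ly6d with 60.7%. What was left was 3.79% for Sprr1a, 4.64% for Shc2, 14% for Sdcbp2, 25.1% for Unc5b and 39.3% for Ly6d. Single gRNA libraries ran from 88.7 to 100% for Sprr1a, with a median of 97.5%, and from 88.9 to 99.7% for Shc2, with a median of 96.6%. For Sdcbp2 they ran from 74.1 to 96.6% (median 87.7%) and for Unc5b from 62.1 to 86.6% (median 77%). For Ly6d they ran from 19.3% in replicate 4 to 89.4% in replicate 1, with a median of 67.3%. All 8 libraries lay on the chow side of the HFHF control mean for all 5 genes.

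On the log2 scale, which weighs ratios, the shares were smaller for all 5 genes and their order differed. Sprr1a closed at most 59.9%, since its chow level was set at 3 counts over the group in place of the 0 measured. Shc2 closed 56.4% and Sdcbp2 35.9%, each with chow at the 3 counts it had. Unc5b closed 54.4% and Ly6d 16.1%. Unc5b therefore came after Sdcbp2 on the linear scale and before it on the log2 scale, while Ly6d had the smallest share on both. Without gRNA replicate 7 the log2 share of Sprr1a was 66%, and without replicate 4 it was 64.7%.

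**Figure D2:**
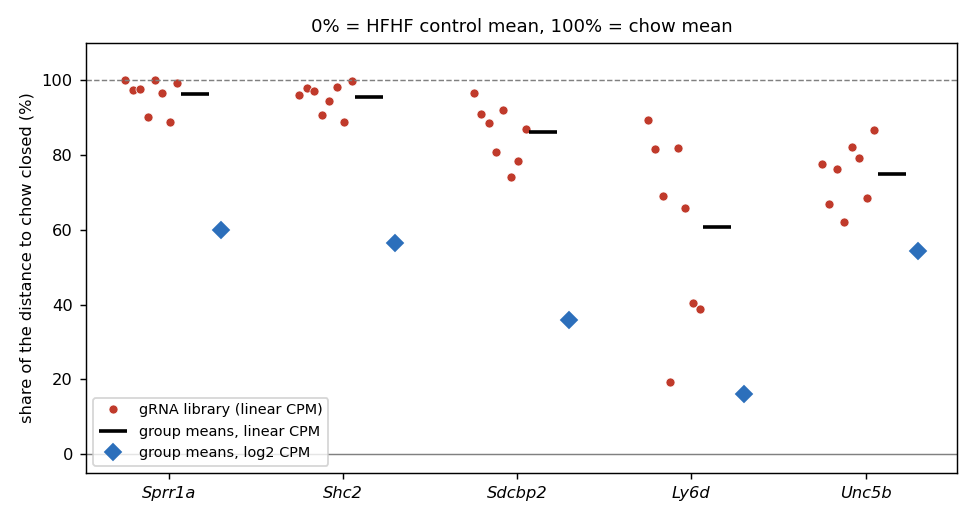
Share of the distance from the HFHF control mean (0%) to the chow mean (100%) that was closed in HFHF Flcn gRNA, in percent, for Sprr1a, Shc2, Sdcbp2, Ly6d and Unc5b; red points are the 8 gRNA libraries and black bars the group means on linear CPM, and blue diamonds are group means on log2 CPM. Sprr1a and Shc2 sit near the top with 88.7 to 100% per library, Ly6d spreads from 19.3 to 89.4%, and each diamond lies below its bar.

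The same gRNA libraries were often high for several of the genes. Ranked from 1 for the highest of the 8 gRNA libraries, replicate 4 had a mean rank of 1.8 over the 5 genes and replicate 7 a mean rank of 2. Replicates 1 and 5, with mean ranks of 6.4 and 6.2, were the lowest. Replicate 8 was mixed, second for Ly6d and last for Shc2 and Unc5b. Among the 7 HFHF control libraries, replicate 6 was the highest for Shc2, Sdcbp2 and Ly6d, and replicate 7 for Sprr1a. HFHF control replicates 4 and 5 were the lowest, with mean ranks of 5.8 each.

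Correlations of log2 CPM were computed within a group, so that the differences between groups play no part. Of 45 relations planned, among the 5 genes and between them and 3 gene scores, 32 were computed and 13 were not because a gene had under 10 counts in more than 2 libraries. In HFHF control, 9 of 10 pairs of genes had a positive Pearson r. The closest pair was Sdcbp2 with Ly6d, with r = 0.95 over 7 libraries (exact two-sided permutation p = 0.00278, adjusted p = 0.0889) and Spearman's rho = 0.93 (exact permutation p = 0.00675, adjusted p = 0.108). Without the 2 libraries farthest from the median, r was 0.90. The same pair had r = 0.83 over the 8 gRNA libraries (exact permutation p = 0.0107, adjusted p = 0.117) and rho = 0.79 (exact permutation p = 0.0279, adjusted p = 0.147), and r was 0.66 without 2 libraries. Shc2 with Ly6d in HFHF control had r = 0.86 (exact permutation p = 0.0153, adjusted p = 0.117) and rho = 0.93 (exact permutation p = 0.00675, adjusted p = 0.108), with r = 0.57 without 2 libraries. No relation of the 32 passed the adjusted threshold, while 8 by Pearson and 10 by Spearman had an unadjusted p under 0.05. Unc5b did not go with the others in HFHF control, where its r lay between -0.33 and 0.20.

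**Figure D3:**
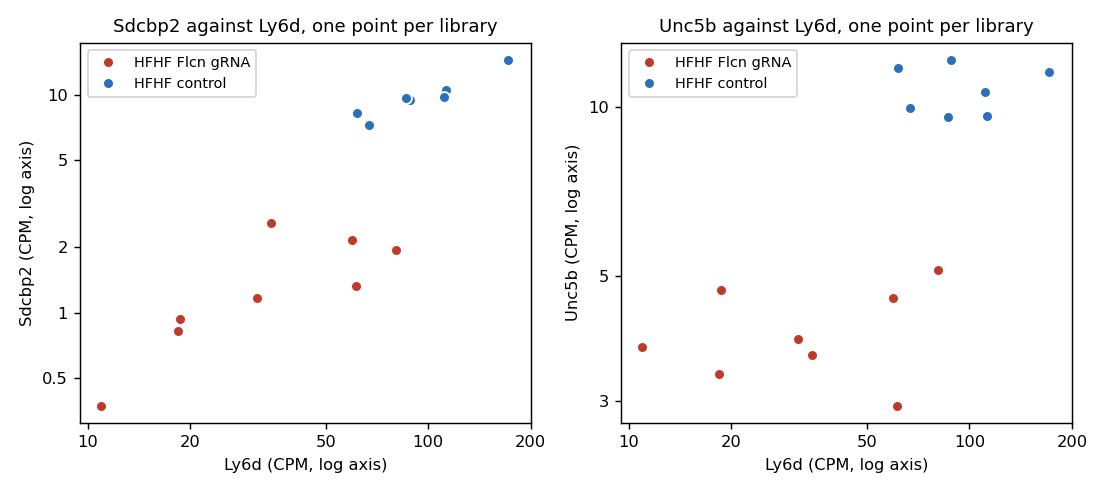
Level of Sdcbp2 (left) and Unc5b (right) against Ly6d, in CPM on log axes, with 1 point for each of 8 HFHF Flcn gRNA libraries and 7 HFHF control libraries. Sdcbp2 had r = 0.83 with Ly6d in gRNA and 0.95 in HFHF control, and Unc5b had r = 0.21 and 0.06. None of these passed the adjusted threshold, and the difference between the panels was not tested.

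The 3 scores were the mean log2 CPM of the hepatocyte keratins Krt8 and Krt18, that of the fibrillar collagens Col1a1, Col1a2 and Col3a1, and, in gRNA libraries, that of Fnip1, Fnip2, Rragc, Rragd and Mcoln1, genes known to be raised by TFEB and TFE3 when folliculin is lost. All genes of the last score were higher in gRNA than in HFHF control. Their log2 fold changes were 0.70 (SE 0.08), 1.94 (SE 0.22), 0.35 (SE 0.07), 1.94 (SE 0.22) and 0.74 (SE 0.10) in that order. In gRNA libraries Sdcbp2 had r = 0.79 with the last score (exact permutation p = 0.0183, adjusted p = 0.117), rho = 0.83 (exact permutation p = 0.0154, adjusted p = 0.123) and r = 0.83 without 2 libraries. Ly6d had r = 0.72 with it (exact permutation p = 0.053, adjusted p = 0.188), rho = 0.76 (exact permutation p = 0.0368, adjusted p = 0.147) and r = 0.88 without 2 libraries. Higher Sdcbp2 and Ly6d thus went with a higher score among the gRNA libraries, but neither relation passed the adjusted threshold. Unc5b had r = -0.08 with that score (exact permutation p = 0.853, adjusted p = 0.957) and rho = -0.12 (exact permutation p = 0.793, adjusted p = 0.94), and without 2 libraries r was 0.86, so the sign rests on those libraries. In HFHF control, Ly6d had r = 0.84 with the collagen score (exact permutation p = 0.0155, adjusted p = 0.117), rho = 0.89 (exact permutation p = 0.0123, adjusted p = 0.123) and r = 0.90 without 2 libraries. In gRNA libraries the same relation had r = 0.45 (exact permutation p = 0.27, adjusted p = 0.54), rho = 0.17 (exact permutation p = 0.703, adjusted p = 0.94) and r = -0.64 without 2 libraries, so its sign rests on those libraries. With the keratin score Ly6d had r = 0.04 in gRNA libraries (exact permutation p = 0.928, adjusted p = 0.958), rho = -0.05 (exact permutation p = 0.935, adjusted p = 0.963) and r = 0.80 without 2 libraries. In HFHF control it had r = 0.79 with the keratin score (exact permutation p = 0.0357, adjusted p = 0.163), rho = 0.79 (exact permutation p = 0.048, adjusted p = 0.154) and r = 0.93 without 2 libraries. Unc5b had r = 0.77 with the collagen score in gRNA libraries (exact permutation p = 0.0241, adjusted p = 0.128). There rho was 0.76 (exact permutation p = 0.0368, adjusted p = 0.147) and r was 0.46 without 2 libraries. In HFHF control Unc5b had r = -0.02 with the collagen score (exact permutation p = 0.963, adjusted p = 0.963). Whether a relation differed between the groups was not tested.

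Genes with the most similar profile over all 20 libraries were listed by Pearson r of log2 CPM, as a description, since the differences between the 3 groups enter it. Closest to Sprr1a were Srxn1, an antioxidant gene encoding sulfiredoxin (r = 0.971), Crtap, needed for collagen prolyl hydroxylation (r = 0.964), and Cd14, a co-receptor for bacterial lipopolysaccharide (r = 0.959). Srxn1 averaged 51.6 ± 11.7 CPM in gRNA libraries, 104 ± 12.5 CPM in HFHF control and 29.1 ± 1.20 CPM in chow (SD). Closest to Shc2 were the membrane protein gene Emp1 (r = 0.972), the collagen gene Col1a1 and the basement membrane gene Nid1 (both r = 0.969). Col1a1 averaged 9.01 ± 4.30 CPM in gRNA libraries, 82.5 ± 28.2 CPM in HFHF control and 2.81 ± 0.488 CPM in chow. Closest to Sdcbp2 were Anxa2, encoding the membrane-binding annexin A2 (r = 0.975), Clip2, encoding a microtubule linker (r = 0.972), and the class I histocompatibility gene H2-Q1 (r = 0.969). Anxa2 averaged 54.7 ± 15.5 CPM in gRNA libraries, 183 ± 36.6 CPM in HFHF control and 10.7 ± 1.49 CPM in chow. Ly6d was most like Ttc39a (r = 0.982), the DNA repair gene Rad51b (r = 0.974) and the sterol transfer gene Gramd1b (r = 0.973). Rad51b averaged 7.52 ± 4.11 CPM in gRNA libraries, 23.3 ± 2.88 CPM in HFHF control and 0.287 ± 0.147 CPM in chow. Unc5b was most like Timp1, an inhibitor of matrix metalloproteinases (r = 0.975), the collagen gene Col1a2 and the LIM domain gene Crip1 (both r = 0.966). Timp1 averaged 0.374 ± 0.263 CPM in gRNA libraries and 3.62 ± 0.885 CPM in HFHF control and had no count in chow.

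The genes next to the 5 on the chromosome were set beside them, chosen by position after their values were seen. At Shc2 both neighbours with reads had their highest mean in HFHF control, as Shc2 did. Gm47163, a long noncoding RNA annotated as sharing a bidirectional promoter, starts on the opposite strand and overlaps Shc2 by 63 bases. It held 6 counts over the gRNA libraries, 317 over the HFHF control libraries and 0 over the chow libraries. Its mean was 0.0469 ± 0.053 CPM with the guide and 2.46 ± 1.32 CPM in HFHF control (SD), a log2 difference of -5.52 (SE 0.53). It is given as a description with no test, as for C2cd4c below, since both were added after their values were seen and have few reads outside HFHF control. HFHF control was at least 56-fold higher than chow. Reads in the overlap cannot be told apart, since the labels do not state whether counting used strand. HFHF control replicate 6 was the highest library and replicate 5 the lowest for both Gm47163, at 4.69 and 0.782 CPM, and Shc2.

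C2cd4c, 4026 bases beyond the 3′ end of Shc2, lay on the same strand and had 10 counts in gRNA, 126 in HFHF control and 3 in chow. It averaged 0.0806 ± 0.085 CPM with the guide and 0.991 ± 0.77 CPM in HFHF control (SD), a log2 difference of -3.54 (SE 0.61), and the ratio of HFHF control over chow was 21.8 (95% counting interval 7.4 to 109). Its highest HFHF control libraries were replicates 6 and 2, at 2.29 and 1.89 CPM, which were also the highest for Shc2. Odf3l2, 1608 bases beyond the start of Shc2, had no count in any library.

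**Figure D4:**
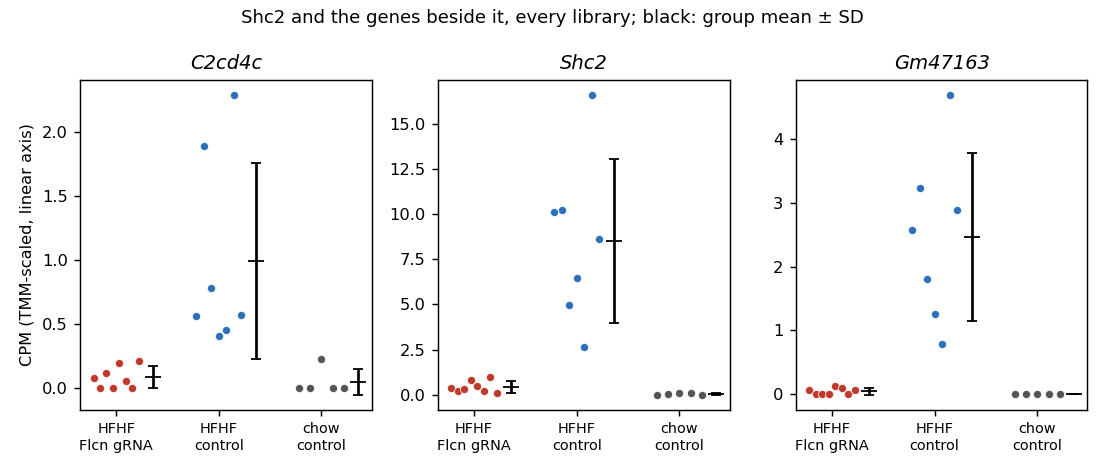
Level in CPM (linear axes, a scale for each gene) of C2cd4c, Shc2 and Gm47163 in every library of HFHF Flcn gRNA, HFHF control and chow control, with black bars for mean ± SD. All 3 genes lie at or near 0 in gRNA and chow and are spread upward in HFHF control, where the top point is replicate 6 in each panel.

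The neighbours of the other 4 genes differed. Fkbp1a, encoding the FK506-binding protein FKBP12, lies 10930 bases from Sdcbp2 and averaged 49.6 ± 7.23 CPM in gRNA libraries, 81.8 ± 9.56 CPM in HFHF control and 34.2 ± 3.64 CPM in chow (SD). Its log2 difference was -0.72 between gRNA and HFHF control (SE 0.09) and 1.26 between HFHF control and chow (SE 0.10). Fkbp1a is given with no test, as is Slc29a3 below, since both were added after their values were seen. Snph, 544 bases beyond the 3′ end of Sdcbp2, had 0 counts in gRNA, 7 in HFHF control and 0 in chow. Lynx1, a LY6 family gene 9010 bases from Ly6d, averaged 1.01 ± 0.218 CPM in gRNA libraries, 2.25 ± 0.57 CPM in HFHF control and 0.61 ± 0.169 CPM in chow. It fell with the guide (log2 fold change -1.16, SE 0.19, adjusted p = 4.27e-05) and rose with the diet (1.89, SE 0.24, adjusted p = 8.61e-07, edgeR's quasi-likelihood test). Slc29a3, 9799 bases from Unc5b, was at 6.60 CPM in gRNA, 8.04 CPM in HFHF control and 5.49 CPM in chow. Its log2 difference was 0.55 between HFHF control and chow (SE 0.15) and -0.29 between gRNA and HFHF control (SE 0.12).

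The closest relatives by family were set beside the 5 genes. Shc1, the widely expressed SHC adaptor, averaged 49.4 ± 4.07 CPM in gRNA libraries, 48.7 ± 2.59 CPM in HFHF control and 54.8 ± 2.0 CPM in chow (SD). It stood at 0.02 with the guide (log2 fold change, SE 0.05, adjusted p = 0.798) and was lower in HFHF control than in chow by 0.17 (log2 fold change -0.17, SE 0.06, adjusted p = 0.0219, edgeR's quasi-likelihood test). Per kilobase of exon it stood at 8.76 CPM in gRNA libraries and 8.64 CPM in HFHF control, above the 0.0805 and 1.57 of Shc2 in the same groups. Sdcbp, encoding syntenin-1, averaged 65.3 ± 6.86 CPM with the guide, 81.7 ± 5.69 CPM in HFHF control and 47.6 ± 0.965 CPM in chow. It fell with the guide (log2 fold change -0.32, SE 0.06, adjusted p = 0.000237) and rose with the diet (0.78, SE 0.07, adjusted p = 1.01e-08, edgeR's quasi-likelihood test). Unc5a averaged 0.514 ± 0.197 CPM in gRNA libraries, 0.798 ± 0.321 CPM in HFHF control and 0.711 ± 0.227 CPM in chow, with overlapping groups. Unc5c had 5 counts over gRNA libraries, 3 over HFHF control and 2 over chow, and Unc5d had 1 count in all, in HFHF control. Per kilobase of exon, Unc5a stood at 0.123 CPM with the guide, 0.191 CPM in HFHF control and 0.171 CPM in chow, below Unc5b in each group.

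Lists of related genes were read against all genes tested, with the 5 genes themselves left out. Between gRNA and HFHF control 38.6% of the 13667 genes passed an adjusted p of 0.05 in edgeR's quasi-likelihood test, 19.6% higher and 19% lower. Between HFHF control and chow 57% passed, 28.1% higher and 28.9% lower, and between gRNA and chow 42.6% passed, 20.9% higher and 21.7% lower. Under upper-quartile scaling 37.8% of the calls between gRNA and HFHF control were higher in gRNA, against 50.7% with TMM, and 60.7% of those between HFHF control and chow were higher in HFHF control, against 49.4%. The 8 lists name 146 genes, of which 85 could be tested. With the guide 9 of the 85 rose, 37 fell and 39 did not pass, with a median log2 fold change of -0.26 against 0.01 over all genes tested. With the diet 41 rose, 25 fell and 19 did not pass, with a median of 0.31 against -0.01. Between gRNA and chow 18 were higher, 21 were lower and 46 did not pass, with a median of -0.01 against 0.00. Some genes with few reads, such as Ankrd1 and Krt19, could pass the filter on low counts through HFHF control alone. They stay in these counts, so nothing is read from their calls. The median of the 5 genes was -2.77 between gRNA and HFHF control, but they were picked for that change, so it is not set against the medians above.

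The label of the 5 genes as epithelial was set against marker lists. Of the cornified envelope and squamous list, 4 of 31 genes could be tested. Ppl, encoding the envelope protein periplakin, averaged 9.53 ± 3.10 CPM in gRNA libraries, 31.3 ± 6.83 CPM in HFHF control and 13.2 ± 1.41 CPM in chow (SD). It fell with the guide (log2 fold change -1.72, SE 0.17, adjusted p = 2.99e-07) and rose with the diet (1.25, SE 0.20, adjusted p = 2.19e-05, edgeR's quasi-likelihood test). Tgm1, the transglutaminase of keratinocytes, fell with the guide (-1.24, SE 0.21, adjusted p = 6.94e-05 in edgeR). It was lower in HFHF control than in chow by a margin just past the threshold (-0.52, SE 0.22, adjusted p = 0.0441, edgeR's quasi-likelihood test), a call that was lost when most single libraries were left out. The other 2, of 4 tested, did not pass in either comparison. Of 9 squamous epithelium markers, the basal and suprabasal keratins Krt14, Krt13 and Krt15 were at 0 in every library, and Krt5, Krt4, Trp63 and Dsg3 were under the filter. Only Perp and Sfn were tested, and their sum with the rest of the list was 85.8 to 104 CPM in gRNA libraries, 94.8 to 112 CPM in HFHF control and 72.9 to 89.9 CPM in chow. Nearly all of that sum was Perp, a desmosome gene that many cell types express, at 96.8 ± 5.53 CPM in gRNA libraries, 104 ± 5.66 CPM in HFHF control and 80.2 ± 6.80 CPM in chow (SD). Perp rose with the diet on the log2 scale (0.37, SE 0.06, adjusted p = 2.39e-05, edgeR's quasi-likelihood test). With the guide Perp did not pass (-0.10, SE 0.05, adjusted p = 0.139, edgeR's quasi-likelihood test). Sfn had log2 differences of 0.98 with the diet (SE 0.37) and -0.60 with the guide (SE 0.30). Its p-values are not given, since it could pass the filter on low counts through HFHF control alone. The libraries thus held Sprr1a and Ly6d with no read of Krt14, Krt13 or Krt15. Other markers of the list did have reads. Sfn had 68 counts in gRNA, 102 in HFHF control and 27 in chow, Krt4 had 3, 15 and 8, and Krt5, Trp63 and Dsg3 had fewer than Krt4.

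Genes of the liver's own simple epithelium were counted in the same way. Of 11 tested keratin and junction genes, 3 rose, 6 fell and 2 did not pass with the guide, and with the diet 5 rose, 4 fell and 2 did not pass. Krt19, counted as called in both, had 53 counts in gRNA, 141 in HFHF control and 27 in chow. It could pass the filter on low counts through HFHF control alone. Krt8, the main type II keratin of hepatocytes, averaged 157 ± 20.1 CPM in gRNA libraries, 397 ± 54.1 CPM in HFHF control and 168 ± 8.02 CPM in chow (SD). It fell with the guide (-1.34, SE 0.09, adjusted p = 4.29e-10) and rose with the diet (1.24, SE 0.10, adjusted p = 1.84e-09, edgeR's quasi-likelihood test), and its partner Krt18 moved by -1.37 and 1.11. Cldn1, encoding a tight junction claudin, went the other way, up by 0.68 with the guide (SE 0.10, adjusted p = 1.28e-05) and down by 0.81 with the diet (a log2 fold change of -0.81, SE 0.11, adjusted p = 1.78e-06, edgeR's quasi-likelihood test).

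In the LY6 and uPAR domain family, to which Ly6d belongs, 8 of 27 genes were tested. With the guide 0 rose, 4 fell and 4 did not pass (median log2 fold change -0.73), and with the diet 6 rose, 0 fell and 2 did not pass (median 1.27). Against chow, the gRNA group was higher for 3 and did not pass for 5. Ly6a, encoding the stem cell antigen SCA-1, averaged 5.28 ± 1.30 CPM in gRNA libraries, 11.7 ± 2.49 CPM in HFHF control and 3.99 ± 0.898 CPM in chow (SD). It fell by 1.15 with the guide (log2 fold change -1.15, SE 0.16, adjusted p = 1.06e-05) and rose by 1.56 with the diet (SE 0.20, adjusted p = 1e-06, edgeR's quasi-likelihood test). Ly6e, an interferon-responsive member, fell with the guide (-0.93, SE 0.10, adjusted p = 2.76e-07) and rose with the diet (1.21, SE 0.12, adjusted p = 1.98e-08, edgeR's quasi-likelihood test). Plaur, the urokinase receptor gene, averaged 0.600 ± 0.244 CPM with the guide, 1.38 ± 0.492 CPM in HFHF control and 0.116 ± 0.0634 CPM in chow. Its log2 differences were -1.21 with the guide (SE 0.27) and 3.48 with the diet (SE 0.44), from 77 counts in gRNA, 181 in HFHF control and 8 in chow. Plaur is among the genes counted as called above. It could pass the filter on low counts through HFHF control alone, so its p-values are not given. The diet changes of these genes ranged below the 8.30 of Ly6d, but Ly6d was picked for a large diet rise, so nothing is read from that order.

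Partners of SHC adaptors were split in direction. Of 15 tested, 4 rose, 4 fell and 7 did not pass with the guide, and 4 rose, 7 fell and 4 did not pass with the diet. The receptor kinase gene Met averaged 91.5 ± 5.93 CPM in gRNA libraries, 57.3 ± 5.84 CPM in HFHF control and 101 ± 5.77 CPM in chow (SD). It rose with the guide (0.67, SE 0.06, adjusted p = 5.29e-08) and fell with the diet (-0.81, SE 0.07, adjusted p = 3.63e-09, edgeR's quasi-likelihood test). The insulin receptor gene Insr had the same signs at 0.29 and -0.65. The docking protein gene Gab2 had the signs of Shc2, at -0.73 with the guide (SE 0.15, adjusted p = 0.000394) and 1.33 with the diet (SE 0.18, adjusted p = 1.75e-06, edgeR's quasi-likelihood test). Sos1, the RAS exchange factor that GRB2 recruits, fell with the diet (-0.63, SE 0.08, adjusted p = 4.36e-07) and stood at 0.17 with the guide (SE 0.07, adjusted p = 0.0596, edgeR's quasi-likelihood test).

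Syntenins, syndecans and their exosome partners were all expressed, and 14 of 14 were tested. With the guide 2 rose, 8 fell and 4 did not pass (median -0.28), and with the diet 10 rose, 4 fell and 0 did not pass (median 0.54). The tetraspanin gene Cd9 averaged 19.4 ± 3.30 CPM in gRNA libraries, 40.8 ± 7.27 CPM in HFHF control and 13.2 ± 2.14 CPM in chow (SD). It fell with the guide (-1.07, SE 0.12, adjusted p = 7.49e-07) and rose with the diet (1.63, SE 0.15, adjusted p = 1.07e-08, edgeR's quasi-likelihood test). Cd151, another tetraspanin gene, moved by -0.30 with the guide (SE 0.05, adjusted p = 0.000187) and 0.70 with the diet (SE 0.06, adjusted p = 1.01e-08, edgeR's quasi-likelihood test).

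Of the UNC5 receptors, netrins and co-receptors, 12 of 18 were tested. With the guide 0 rose, 3 fell and 9 did not pass (median -0.21), and with the diet 4 rose, 3 fell and 5 did not pass (median 0.22). Rgma, encoding a ligand of the netrin co-receptor neogenin, averaged 0.285 ± 0.106 CPM in gRNA libraries, 1.17 ± 0.569 CPM in HFHF control and 0.0600 ± 0.0623 CPM in chow (SD). Its log2 difference was -2.01 with the guide (SE 0.33) and 4.15 with the diet (SE 0.55), from 37 counts in gRNA, 152 in HFHF control and 4 in chow. It is among the genes counted as called above, but it could pass the filter on low counts through HFHF control alone, so its p-values are not given. The diet value lay between 3.86 and 4.76 when single libraries were left out. Ntn1, the ligand netrin-1, averaged 7.35 ± 1.38 CPM with the guide, 9.39 ± 1.40 CPM in HFHF control and 7.15 ± 1.39 CPM in chow. Its fall of 0.35 with the guide (log2 fold change -0.35, SE 0.12, adjusted p = 0.0263) and its rise of 0.39 with the diet (SE 0.14, adjusted p = 0.0231, edgeR's quasi-likelihood test) each lost the call when certain single libraries were left out, gRNA replicate 6, HFHF control replicate 1 or 2 for the guide and chow replicate 2 for the diet. Dapk1, a kinase known to act under UNC5B in cell death, fell with the diet (-1.30, SE 0.16, adjusted p = 8.03e-07) and stood at 0.32 with the guide (SE 0.14, adjusted p = 0.0764, edgeR's quasi-likelihood test).

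**Figure D5:**
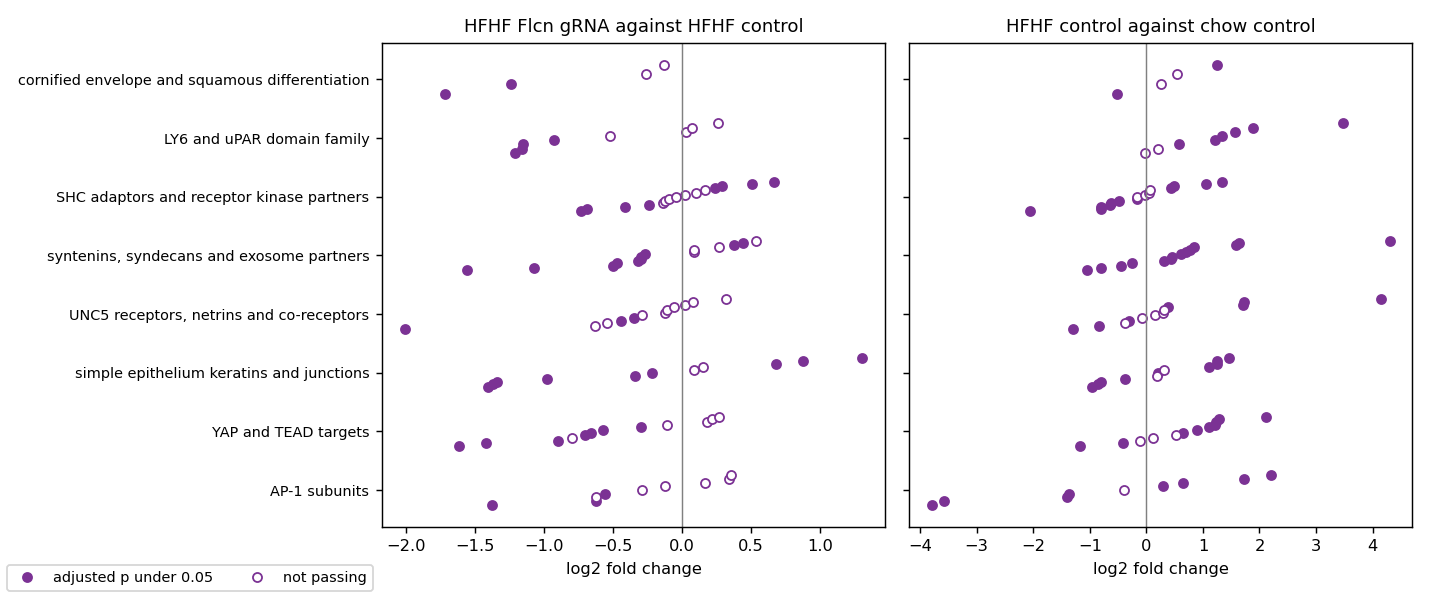
Log2 fold change of every tested gene of 8 related lists, HFHF Flcn gRNA against HFHF control on the left and HFHF control against chow control on the right; each point is 1 gene, filled where the adjusted p is under 0.05. On the left 37 of 85 genes fell and 9 rose, and on the right 41 rose and 25 fell; the 5 genes of the report are not drawn.

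Genes of the AP-1 factors, whose letters were searched for above, and known targets of YAP and TEAD were counted in the same way. Of 9 AP-1 subunit genes tested, 0 rose, 3 fell and 6 did not pass with the guide, and 4 rose, 4 fell and 1 did not pass with the diet. The other 2 of the 11 listed were under the filter. Fosl1 had 1 count in gRNA, 42 in HFHF control and 1 in chow, and Batf had 40, 91 and 14. Fosl2 averaged 8.58 ± 1.34 CPM in gRNA libraries, 13.2 ± 2.13 CPM in HFHF control and 8.42 ± 2.29 CPM in chow (SD), with log2 fold changes of -0.62 (SE 0.13, adjusted p = 0.000542) with the guide and 0.65 (SE 0.15, adjusted p = 0.000804, edgeR's quasi-likelihood test) with the diet. Batf3, a subunit with few reads (43 counts in gRNA, 115 in HFHF control and 18 in chow), had log2 differences of -1.38 (SE 0.31) and 1.73 (SE 0.39), given with no test for the same reason as Rgma. Fos was lower in HFHF control than in chow (-3.57, SE 0.71, adjusted p = 0.000344, edgeR's quasi-likelihood test), at 2.71 ± 1.29 CPM against 32.0 ± 34.5 CPM, and stood at -2.61 without chow replicate 4, which alone held 92.6 CPM. Of 12 YAP and TEAD targets, 0 rose, 7 fell and 5 did not pass with the guide (median -0.62), and 7 rose, 2 fell and 3 did not pass with the diet (median 0.77). Ankrd1, counted as called in both, had 43 counts in gRNA, 133 in HFHF control and 16 in chow. It could pass the filter on low counts through HFHF control alone. Ajuba, a LIM protein gene of the Hippo pathway, fell with the guide (-1.42, SE 0.16, adjusted p = 6.35e-07) and rose with the diet (1.23, SE 0.19, adjusted p = 9.12e-06, edgeR's quasi-likelihood test). Tead1 itself averaged 16.4 ± 2.93 CPM in gRNA libraries, 24.4 ± 1.93 CPM in HFHF control and 11.3 ± 1.11 CPM in chow.

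Markers of several cell types moved across the same groups as the 5 genes. Summed over 8 of 8 tested stellate cell markers, the level was 298 to 392 CPM in gRNA libraries, 518 to 623 CPM in HFHF control and 223 to 273 CPM in chow, and with the guide 6 fell and 0 rose while with the diet 8 rose. Macrophage and monocyte markers, 9 of 9 tested, summed to 121 to 290 CPM in gRNA, 168 to 398 CPM in HFHF control and 63.6 to 108 CPM in chow, with 2 up and 6 down under the guide. Neutrophil markers, 3 of 6 tested, summed to 3.07 to 9.56 CPM, 7.37 to 11.7 CPM and 2.06 to 5.21 CPM in the same order of groups, and T cell markers, 7 of 7 tested, to 3.99 to 11.5 CPM, 6.28 to 16.2 CPM and 3.45 to 4.62 CPM. Each of these 4 lists was highest in HFHF control by its range, as the 5 genes were. In the macrophage list this sum leaned on Spp1, at 158 CPM in HFHF control, 40 CPM in gRNA and 19.9 CPM in chow. Gpnmb, Clec4f and Timd4 of that list had higher means in gRNA than in HFHF control. Those means were 72.3 against 46.1, 63.3 against 39.9 and 5.08 against 1.05 CPM. The macrophage sum was not computed without Spp1. Hepatocyte markers, 8 of 8 tested, had their highest range in chow, with sums of 45652 to 79626 CPM in gRNA, 41627 to 63472 CPM in HFHF control and 72058 to 95536 CPM in chow. The gRNA and HFHF control ranges overlapped. With the guide 3 rose, 0 fell and 5 did not pass, and with the diet 0 rose, 6 fell and 2 did not pass.

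Lists of cells that can express some of the 5 genes were less parallel to them. Cholangiocyte markers, 5 of 8 tested and with Krt7, Cldn7 and Cftr under the filter, summed to 18.5 to 24.2 CPM in gRNA, 20.1 to 37.7 CPM in HFHF control and 20.1 to 30.1 CPM in chow, overlapping between all groups. With the guide 4 of these fell. Markers of B cells and plasmacytoid dendritic cells, which include Ly6d-expressing cells in the mouse, summed to 100 to 147 CPM in gRNA, 100 to 140 CPM in HFHF control and 69 to 78.5 CPM in chow, with 5 of 8 tested up and 1 down under the guide. Endothelial markers, where Unc5b is known, summed to 141 to 249 CPM in gRNA, 132 to 196 CPM in HFHF control and 148 to 178 CPM in chow, with 3 of 9 up and 0 down under the guide. The part of any of these cell types in the levels of the 5 genes was not tested.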

How the data were processed

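Per the labels' protocols, RNA was purified from liver lysed in Trizol, the mRNA libraries came from a KAPA HyperPrep kit with adapters that hold unique molecular identifiers, and reads were single-end. The authors deposited expected counts, estimates per gene that can be fractional (77.8% of the deposited values of at least 1 were whole within 1e-06). The build was GRCm38, per the submitters' processing notes. The aligner, counting tool, annotation, use of strand and use of the identifiers were not given in the sources used. Reads amplified from the same molecule may have been counted apart, so intervals and floors cover counting error only.

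Of 32422 features, 32400 were genes, and 32325 of these had a name in GENCODE M21. The 22 construct features held 7.0 counts (2.2e-06%) and were left out, as was 1 column that matched no label. Counts were rounded. Genes were kept with filterByExpr (13667 genes) and scaled with TMM, and all 20 libraries entered 1 quasi-likelihood fit (edgeR 4.0.16, R 4.3.3, robust, 17 residual degrees of freedom, common biological coefficient of variation 0.164), tested on simulated data. P-values were adjusted by Benjamini and Hochberg over all genes, with a threshold of 0.05. A fold against chow with 0 counts is a bound against 3 counts over the group, and with 1 to 3 counts a ratio with an exact 95% counting interval. DESeq2 1.42.0, other scalings, no filter and leaving out each library were alternatives. Correlations used exact permutations (scipy 1.17.1).

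Named were the 5 genes, up to 3 called genes of smallest p per related list and comparison, the nearest family members and the 3 genes most alike in profile, leaving out gene models. Neighbours and squamous markers were added by position or list. Of the cholangiocyte marker list, 1 gene is not reported here. The 5 genes and the lists were chosen with earlier results of these data known. Groups came from the diet and treatment labels, and replicate numbers follow accession order.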

Additional observations from a re-analysis of the deposited data

Results flagged for a closer look

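In 120 groups of libraries, taken from 40 genes named above, 7 libraries lay far enough from the rest of their group to be singled out by Dixon's test at 95%. Chance singles out about 1 group in 20. Of the 5 genes, only Sprr1a had such a library, HFHF control replicate 7 at 20.8 CPM, while the other HFHF controls ran from 6.09 to 12.4 CPM. Ly6a was low in HFHF control replicate 1 at 6.39 CPM, with the others at 11.7 to 14.1 CPM. Tgm1 was high in HFHF control replicate 4 at 5.55 CPM, with the others at 2.23 to 3.52 CPM. Fos stood at 15.7 CPM in gRNA replicate 5, against 0.617 to 2.95 CPM in the other gRNA libraries, and at 92.6 CPM in chow replicate 4, against 7.86 to 25.4 CPM in the other chow libraries. Fosb stood at 1.58 CPM in gRNA replicate 5, against 0 to 0.465 CPM in the others. C2cd4c, beside Shc2, had 0.227 CPM (3 counts) in chow replicate 3 and 0 in the other chow libraries.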

How the results depend on the processing

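The sign of each log2 fold change of the 5 genes was the same under DESeq2's size factors, upper-quartile scaling, no filter on low counts, DESeq2's test and each library left out. Between gRNA and HFHF control the values with 1 library left out ran from -5.13 to -4.41 for Sprr1a, -4.56 to -4.02 for Shc2, -2.97 to -2.65 for Sdcbp2, -1.57 to -1.16 for Ly6d and -1.48 to -1.38 for Unc5b. The share of the distance to chow closed depended on the scale, with 96.2, 95.4, 86, 60.7 and 74.9% on linear CPM for Sprr1a, Shc2, Sdcbp2, Ly6d and Unc5b, and 59.9, 56.4, 35.9, 16.1 and 54.4% on log2 CPM, because a log scale weighs the low chow levels more. With group medians the linear shares were 97.1, 96.9, 87, 63 and 78.4%. The log2 share of Sprr1a ran from 57.3 to 66% with 1 library left out. The Sdcbp2 ratio to chow ran from 191 to 521 for HFHF control and from 27.3 to 74.4 for gRNA, the highest being without chow replicate 2, which leaves 1 chow read. Upper-quartile scaling moved the median of all genes tested to -0.05 between gRNA and HFHF control and 0.08 between HFHF control and chow. For the named related genes, 2017 of 2088 values under other settings kept direction and side of the threshold, 49 lost the call and 22 gained one, over 13 of 87 gene and comparison pairs, Tgm1 and Jund with the diet and Ntn1 and Ntn3 with the guide among them. Fos with the guide, which did not pass, was -0.68 without gRNA replicate 5. No within-group correlation passed the adjusted threshold with DESeq2's size factors or Spearman's rho either. No paired analysis was possible because the replicate numbers follow accession order and pair no samples. Depth limits what can be said of Sprr1a, Shc2 and Sdcbp2 in chow, which held 0, 3 and 3 counts over 5 libraries.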
